A study of Mus musculus with 12 samples.

Results

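The D cyclins (Ccnd1, Ccnd2 and Ccnd3), their kinase partners (Cdk4 and Cdk6) and the inhibitors of those kinases (Cdkn1a, Cdkn1b, Cdkn2a, Cdkn2b and Cdkn2c) are described here in mouse mammary tumourspheres treated with Met and FGFR inhibitors. The 10 genes were taken by symbol from a table of raw read counts that holds 55573 genes, and 9 of them had enough reads to be tested. RNA-sequencing was performed on tumourspheres, clusters of tumour cells grown in suspension, from 3 cell lines (A1005, A1129 and A1471), each established from a spindloid (spindle-celled) mammary tumour. All lines carried the genotype MMTV-Metmt;Trp53fl/+;Cre, that is, a mutant Met receptor driven by the mammary promoter MMTV and 1 floxed allele of Trp53 together with Cre. The MMTV promoter and Cre were thus present in every group, DMSO included, and no line with an unaltered Trp53 locus was among the 12 libraries. Each line was treated for 24 h with DMSO (vehicle), with 1 µM of the Met inhibitor Crizotinib, with 1 µM of the FGFR inhibitor PD173074, or with both inhibitors (combination). This gave n = 3 libraries per treatment, 1 per line, so a replicate is a cell line and not a repeat culture of 1 line.

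D cyclins are the growth factor-dependent subunits of the G1 kinases. They are made when receptor tyrosine kinases signal through the Ras-ERK pathway, they bind Cdk4 or Cdk6, and the resulting kinases phosphorylate the retinoblastoma protein, which frees E2F factors to switch on S phase genes. The kinases are held back by INK4 proteins (the products of Cdkn2a, Cdkn2b and Cdkn2c), which bind Cdk4 and Cdk6 directly, and by Cip/Kip proteins (p21 from Cdkn1a and p27 from Cdkn1b), which act mainly on the Cdk2 complexes and can also help cyclin D bind its kinase. Cdkn1a is the classical p53 target behind p53-dependent G1 arrest, and Cdkn2a encodes both p16Ink4a and, from another first exon and reading frame, p19Arf, which stabilises p53.

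Total counts were 13031492 to 17750476 per library, and no library duplicated another. The mesenchymal markers Vim, Twist1, Zeb1 and Fn1 were abundant in every library, whereas the mesenchymal marker Cdh2 had at most 6 counts. The 5 epithelial markers summed to between 7.02 and 52.3 CPM (read counts scaled to library size), mostly from the keratin genes Krt8 (17 to 611 counts) and Krt18 (53 to 748 counts), while Epcam had at most 29 counts, Cdh1 had at most 9 and Cldn7 was at 0 throughout. The 3 basal markers summed to at most 14.0 CPM in A1005, where Trp63 had 10 to 229 counts, and to at most 1.32 CPM in the other lines, with Krt5 at 0 in all 12 libraries. The endothelial list reached at most 0.627 and the adipocyte list reached at most 0.0716 summed CPM. The 5 leucocyte markers summed to between 13.7 and 20.9 CPM in the A1005 libraries and to at most 0.462 CPM in the other lines. This came from Ptprc, the pan-leucocyte gene CD45, with 174 to 339 counts in A1005, while the macrophage marker Adgre1 and the T cell marker Cd3e had at most 1 and 2 counts anywhere. The part of the keratin, Trp63 and Ptprc signals in the values below was not tested, and leaving out A1005 was among the alternatives. Trp53 itself had 40 to 117 counts per library, and a count over the whole gene does not tell the floxed allele from the other. In bulk RNA, fewer cells of a kind and less RNA per cell cannot be told apart.

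In vehicle-treated (DMSO) tumourspheres, the inhibitor gene Cdkn2a and the cyclin gene Ccnd1 were the most abundant of the 10 transcripts. Levels are compared between genes as CPM per kilobase of exon. Cdkn2a stood at 374 ± 105 CPM per kb (SD, n = 3 lines), Ccnd1 at 211 ± 55.2 and Cdk4 at 116 ± 7.52. The ranges of Cdkn2a and Ccnd1 over the lines overlapped, while Cdk4 lay below every Ccnd1 value. A middle group followed with Cdkn2b at 38.0 ± 14.4, Cdkn2c at 28.4 ± 5.36, Cdkn1a at 26.2 ± 6.96, Cdk6 at 17.5 ± 6.35, Cdkn1b at 16.8 ± 3.01 and Ccnd3 at 13.6 ± 1.40 CPM per kb, and each of these overlapped its neighbour in the order. Ccnd2 was last, at 0.0304 ± 0.0152 CPM per kb. Parts of this order depend on the length used. With the longest coding transcript in place of all exons, Ccnd3 stood at 56.7 ± 5.81 CPM per kb, above Cdkn1a at 44.8 ± 11.9. The ranges of Cdk4 (169.71 to 191.85) and Ccnd1 (189.66 to 325.53) then overlapped, while Cdkn2a (331.46 to 569.8) lay above every Ccnd1 value. The lines differed most in Cdkn2b (2.27-fold between A1471 and A1129) and Cdk6 (2.16-fold between A1129 and A1005) among the 9 tested genes, and least in Cdk4 (1.13-fold).

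**Figure D1:**
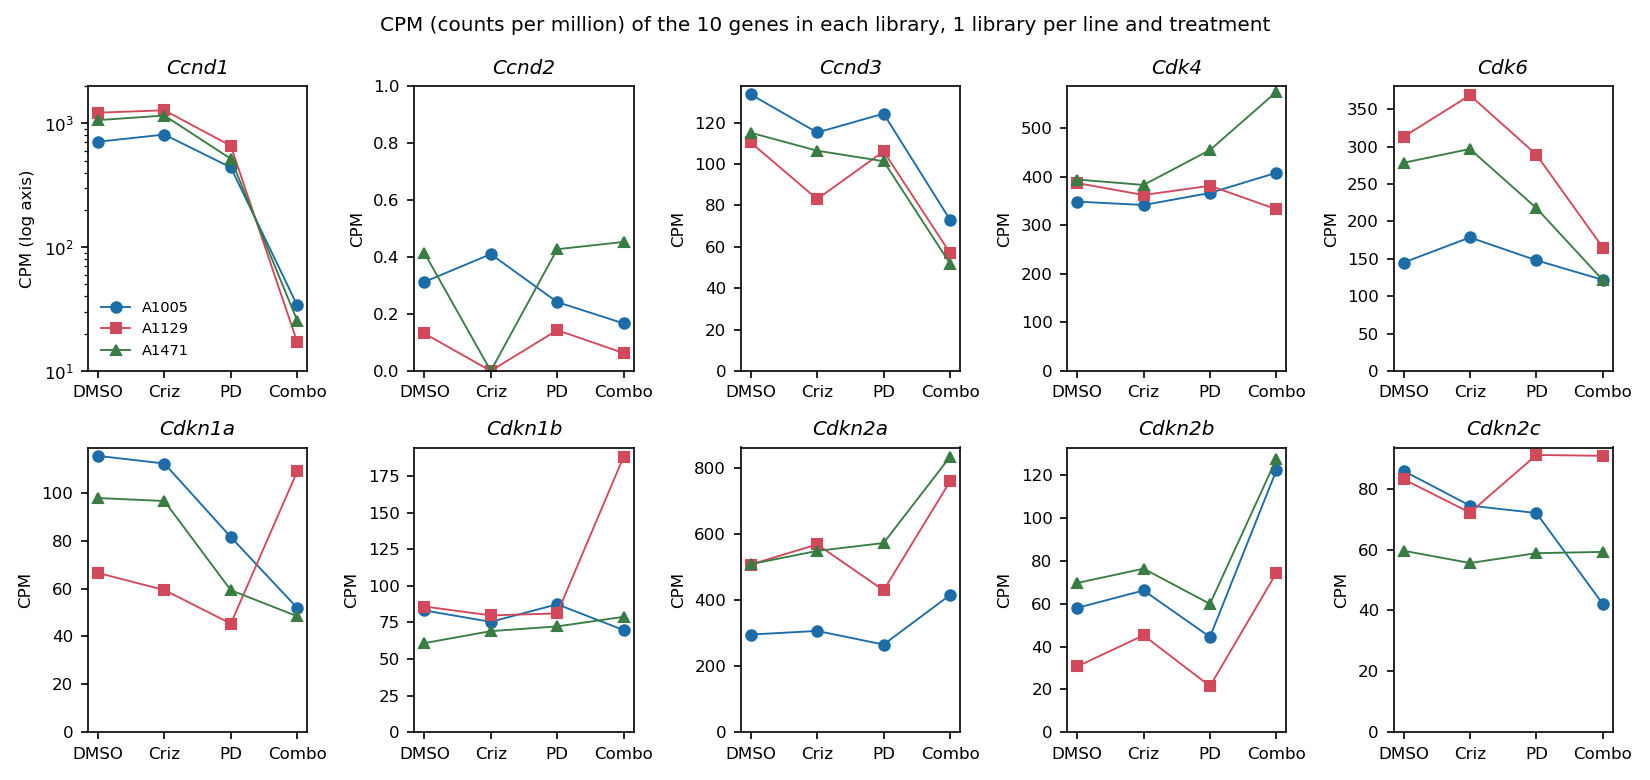
CPM of the 10 genes in each of the 12 libraries (vertical axis, logarithmic for Ccnd1 and linear from 0 for the others) by treatment (DMSO, Criz for Crizotinib, PD for PD173074, Combo for both), with 1 point and colour per line and lines joining the libraries of 1 cell line. Ccnd1 fell from 709 to 1217.5 CPM in DMSO to between 17.1 and 33.9 CPM in the combination, Ccnd3 and Cdk6 were lower in all 3 lines, Cdkn2a and Cdkn2b were higher in all 3, and Cdkn1a and Cdkn1b moved apart between lines.

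The combination of both inhibitors was compared with DMSO to ask how the G1 machinery responded when Met and FGFR were blocked together. Ccnd1 fell by 5.29 and Ccnd3 fell by 0.98 on the log2 scale, whereas Cdk4, the principal kinase partner by transcript level, did not pass the test. In the unpaired fit of edgeR's quasi-likelihood test, with p-values adjusted by the Benjamini-Hochberg method over 13836 genes, 2 of the 9 tested members passed the threshold of 0.05, both lower. In that fit 14.4% of all genes tested passed, 8.28% lower and 6.1% higher. The libraries of 1 cell line resembled each other across treatments, so the fit was repeated with the line as a replicate block. Of the members, 5 then passed, 3 lower (Ccnd1, Ccnd3 and Cdk6) and 2 higher (Cdkn2a and Cdkn2b), where 54.8% of all genes passed, 26.2% lower and 28.6% higher. With such a share of all genes passing, the count of 5 of 9 members is close to the background. By direction alone, these 5 of the 9 members moved the same way in all 3 lines. So did 9230 of the 13836 genes tested, so agreement of direction over the lines was not particular to the members.

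Among the cyclins, Ccnd1 (ENSMUSG00000070348, chromosome 7, 144929931 to 144939925, minus strand, mm10) changed most. Under DMSO its level was 709, 1217.5 and 1060 CPM in lines A1005, A1129 and A1471. In the combination the same lines had 33.9, 17.1 and 25.5 CPM, from 609, 273 and 338 counts. The groups were far apart in every line, and what remained of the DMSO level was 4.77%, 1.41% and 2.41% in the same order of lines. The fitted log2 fold change was -5.29 (95% interval -6.08 to -4.49, adjusted p = 4.59e-05). The gene overlaps LTO1 on the opposite strand by 1100 exonic bases, and LTO1 itself had 162 to 252 counts in all libraries, so the residual Ccnd1 counts in the combination are uncertain where reads from both could not be separated.

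Ccnd3 (ENSMUSG00000034165, chromosome 17, 47505051 to 47599691, plus strand), a D cyclin prominent in lymphoid cells, also fell, and by a much smaller factor. It had 134, 110 and 115 CPM in A1005, A1129 and A1471 under DMSO, and 73.1, 57.0 and 51.9 CPM in the combination. The 3 combination libraries were the lowest of the 12, and the remaining level was 54.7%, 51.6% and 45.1% of DMSO. The log2 fold change was -0.98 (95% interval -1.38 to -0.58, adjusted p = 0.00662, 4.69e-05 with the replicate block). In the unpaired fit the call was lost without A1129 (adjusted p = 0.0895) and without A1471 (adjusted p = 0.155), with log2 changes of -0.99 and -0.90. Ccnd3 shares 361 exonic bases with Bysl on the opposite strand, which had 425 to 1056 counts.

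Ccnd2 (ENSMUSG00000000184, chromosome 6), the third D cyclin, had 0 to 6 counts in every library and did not pass the filter on low counts. Under DMSO it had 4, 2 and 6 counts in A1005, A1129 and A1471, and in the combination 3, 1 and 6. The 2 libraries with 0 counts, A1129 and A1471 under Crizotinib, allow a level of up to 0.198 and 0.216 CPM, which is the level of 3 counts and covers counting error only. No difference in Ccnd2 was detectable at this depth.

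Since Ccnd1 fell further than Ccnd3, the make-up of the D cyclin transcripts differed between treatments. Ccnd1 accounted for 90.8%, 95.4% and 94.5% of the summed D cyclin level (CPM per kb of exon) in A1005, A1129 and A1471 under DMSO, and for 46.3%, 35.8% and 47.6% in the combination. The summed level went from 225 ± 53.8 to 12.4 ± 2.83 CPM per kb (SD, n = 3), with no overlap between treatments. Ccnd3 was thus the larger share in all 3 combination libraries, at 53.6%, 64.1% and 52.0%. The share depends on the length used for Ccnd3, which has many transcripts: with the longest coding transcript in place of all exons, Ccnd3 took 25.0%, 13.8% and 16.1% under DMSO and 79.2%, 85.5% and 78.1% in the combination. The direction was the same in each line with either length.

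**Figure D2:**
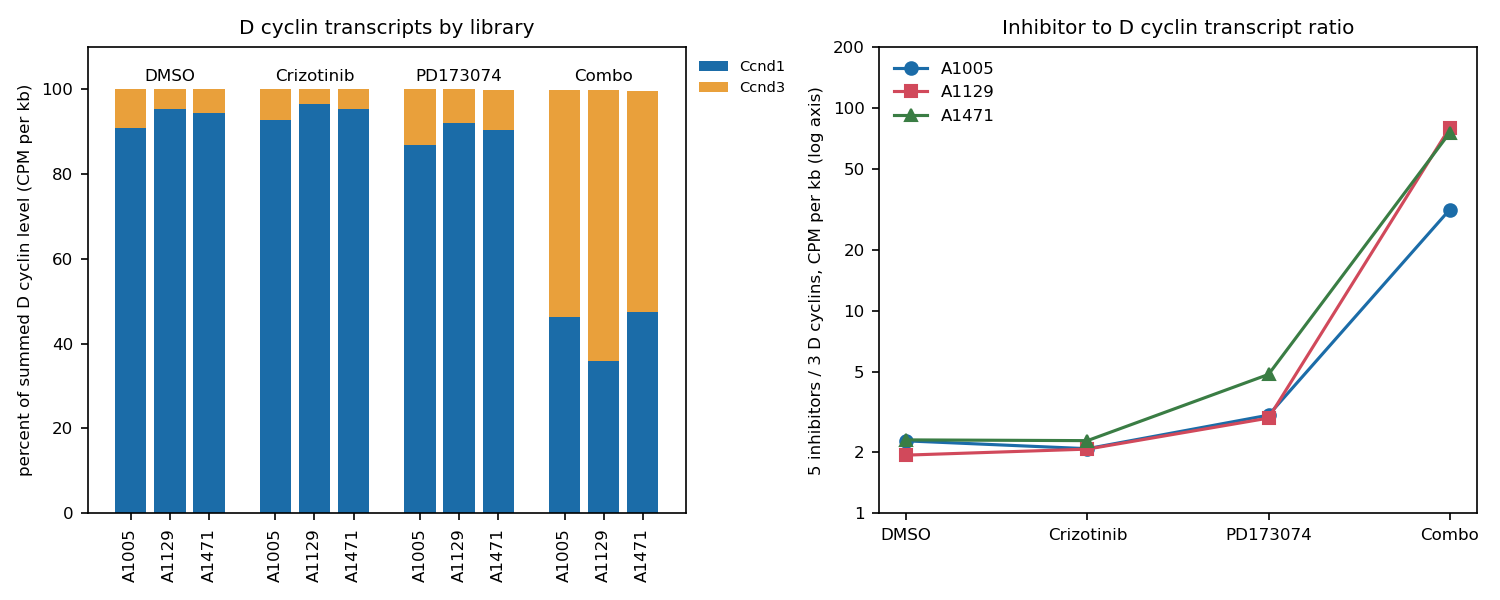
Left, percent of the summed D cyclin level (CPM per kb of exon) from Ccnd1 and Ccnd3 in each library, with Ccnd2 too low to see. Right, ratio of the summed level of the 5 inhibitor genes to that of the 3 D cyclin genes on a logarithmic axis, 1 line per cell line. Ccnd1 made up at least 86.8% of the D cyclin level outside the combination and at most 47.6% in it, while the ratio went from between 1.94 and 2.30 under DMSO to between 31.5 and 79.7.

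The kinase genes behaved differently from each other. Cdk4 (ENSMUSG00000006728, chromosome 10, 127063534 to 127067920, plus strand), the kinase that D cyclins use in most epithelial cells, had 348, 387 and 394 CPM in A1005, A1129 and A1471 under DMSO and 408, 333 and 574 CPM in the combination. It was higher in A1005 and A1471 and lower in A1129, and the groups overlapped. The log2 fold change was 0.22 (95% interval -0.21 to 0.65, adjusted p = 0.509, 0.233 with the replicate block). With the block and without A1129 it was 0.40 and passed the threshold (adjusted p = 0.0404). Cdk4 shares 641 exonic bases with Tspan31 on the opposite strand, which had 853 to 2256 counts.

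Cdk6 (ENSMUSG00000040274, chromosome 5, 3341485 to 3531008, plus strand), the alternative D cyclin kinase, had 145, 313 and 278 CPM in A1005, A1129 and A1471 under DMSO and 122, 165 and 122 CPM in the combination. It was lower in all 3 lines, least so in A1005, at 84.0% of DMSO against 52.7% in A1129 and 43.7% in A1471. Because A1005 started low, the groups overlapped. The log2 fold change was -0.85 (95% interval -1.66 to -0.05), which missed the threshold in the unpaired fit (adjusted p = 0.151) and passed it with the replicate block (-0.78, adjusted p = 0.00178) and, unpaired, without A1005 (-1.03, adjusted p = 0.0347). Cdk4 made up 87.1% ± 3.66 of the summed level of both kinases under DMSO and 92.8% ± 2.88 in the combination (SD, n = 3), and its share was higher in the combination in each line.

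The Cip/Kip inhibitor genes did not move together across the lines. Cdkn1a (ENSMUSG00000023067, chromosome 17, 29090976 to 29100727, plus strand), which encodes p21, had 115, 66.5 and 97.7 CPM in A1005, A1129 and A1471 under DMSO and 51.9, 109 and 48.4 CPM in the combination. It was at 45.0% of DMSO in A1005 and 49.6% in A1471, but at 164% in A1129, the line in which it had started lowest. The per-line log2 ratios were -1.15 (exact 95% interval for counting error -1.27 to -1.03), -1.01 (-1.15 to -0.88) and 0.71 (0.60 to 0.82). Over the 3 lines the log2 fold change was -0.42 (95% interval -1.26 to 0.42, adjusted p = 0.522, 0.409 with the replicate block). Without A1129 and with the block it was -1.07 and passed the threshold (adjusted p = 0.00148), so that in the fit with the block A1129 decided the call.

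Cdkn1b (ENSMUSG00000003031, chromosome 6, 134920401 to 134925513, plus strand), which encodes p27, had 83.2, 85.9 and 60.9 CPM in A1005, A1129 and A1471 under DMSO and 69.8, 188 and 78.8 CPM in the combination. A1129 was again the line with the higher value, at 219% of DMSO, with A1471 at 129% and A1005 at 83.9%. The log2 fold change was 0.55 (95% interval -0.19 to 1.28, adjusted p = 0.311, 0.127 with the replicate block). It passed with the block when A1005 was left out (0.81, adjusted p = 0.0273). Both Cip/Kip transcripts were thus higher in the A1129 combination library than in its DMSO library, which held for neither other line.

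The INK4 genes Cdkn2a and Cdkn2b lie next to each other on chromosome 4, 11645 bases apart and on the same strand, and both were higher in the combination in all 3 lines. Cdkn2a (ENSMUSG00000044303, 89274471 to 89294653, minus strand) had 297, 509 and 510 CPM in A1005, A1129 and A1471 under DMSO and 416, 761 and 835 CPM in the combination. The increase was of like size in each line, to 140%, 150% and 164% of DMSO, while A1005 stayed below the others in both treatments, so the groups overlapped. The log2 fold change of 0.61 (95% interval -0.23 to 1.46) missed the threshold in the unpaired fit (adjusted p = 0.327) and passed with the replicate block (0.59, 95% interval 0.36 to 0.82, adjusted p = 8.68e-04). With the block it also passed without each line in turn. One count per gene cannot separate the p16Ink4a and p19Arf transcripts.

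Cdkn2b (ENSMUSG00000073802, 89306299 to 89311039, minus strand), which encodes p15Ink4b, had 58.0, 30.7 and 69.6 CPM in A1005, A1129 and A1471 under DMSO and 122, 74.3 and 127 CPM in the combination. All combination values lay above all DMSO values, and the level was 211%, 242% and 183% of DMSO in the 3 lines. The log2 fold change was 1.03 (95% interval 0.11 to 1.95, adjusted p = 0.13), and with the replicate block it was 1.07 (95% interval 0.78 to 1.37, adjusted p = 1.18e-04). Here too the call with the block was kept without each line in turn. Cdkn2c (ENSMUSG00000028551, chromosome 4, 109660876 to 109667189, minus strand), which encodes p18Ink4c, had 85.8, 83.1 and 59.6 CPM under DMSO and 42.1, 90.7 and 59.2 CPM in the combination. Only A1005 was clearly lower, at 49.1% of DMSO, and the log2 fold change of -0.25 (95% interval -0.88 to 0.38) did not pass in either fit (adjusted p = 0.625 and 0.264).

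Because Cdkn2a and Cdkn2b are neighbours that were higher in the same libraries, the 250 bases before their RefSeq transcription starts are shown, 5′ to 3′ on the minus strand of chromosome 4 (GRCm38.p6, the build also called mm10), with motif matches in capitals.
Cdkn2b, chr4:89311033-89311282: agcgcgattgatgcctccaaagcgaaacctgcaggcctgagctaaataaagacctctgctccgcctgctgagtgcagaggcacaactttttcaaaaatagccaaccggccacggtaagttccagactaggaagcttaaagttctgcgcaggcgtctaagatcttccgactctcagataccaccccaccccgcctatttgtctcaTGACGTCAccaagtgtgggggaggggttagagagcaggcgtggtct
Cdkn2a upstream start (first exon of p19Arf), chr4:89294620-89294869: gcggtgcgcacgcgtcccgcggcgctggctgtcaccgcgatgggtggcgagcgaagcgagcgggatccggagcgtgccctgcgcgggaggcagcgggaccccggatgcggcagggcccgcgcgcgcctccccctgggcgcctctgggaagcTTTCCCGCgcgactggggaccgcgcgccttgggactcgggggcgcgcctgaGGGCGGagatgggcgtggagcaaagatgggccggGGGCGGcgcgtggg
Cdkn2a downstream start (first exon of p16Ink4a), chr4:89282193-89282442: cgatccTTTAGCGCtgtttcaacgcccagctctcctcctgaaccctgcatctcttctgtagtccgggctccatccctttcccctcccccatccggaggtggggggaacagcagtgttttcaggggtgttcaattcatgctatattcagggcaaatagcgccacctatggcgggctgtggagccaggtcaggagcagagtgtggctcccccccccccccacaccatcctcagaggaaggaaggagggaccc
The motifs searched on both strands were AP-1 (TGANTCA), CRE (TGACGTCA), E2F (TTTNNCGC), FoxO (TGTTTAC) and SP/KLF (GGGCGG), and no matches overlapped in these windows. The Cdkn2b window held 1 CRE match, a motif present in 1.56% of 32536 such windows of RefSeq genes. Both Cdkn2a windows held 1 E2F match (4.31% of all windows), and the upstream one also held 2 SP/KLF matches (33.0% of all windows). None of the 3 windows held an AP-1 (6.73%) or FoxO (3.17%) match. Windows were found for 8 of the 10 genes.

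**Figure D3:**
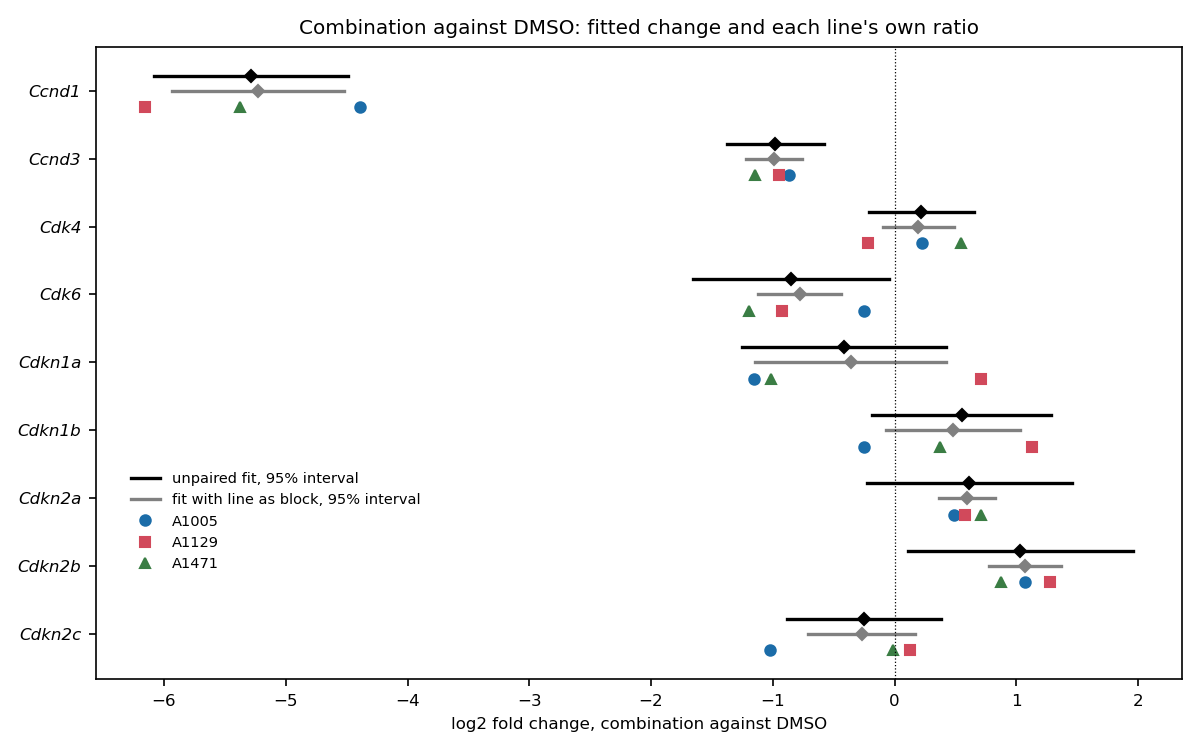
Log2 fold change of the 9 tested genes in the combination against DMSO. Black and grey diamonds are the fitted values without and with the line as a block, bars are 95% intervals, and coloured points are the ratios of the single lines. Ccnd1, Ccnd3 and Cdk6 lie below 0 in all 3 lines, Cdkn2a and Cdkn2b lie above 0 in all 3, and the points of Cdk4, Cdkn1a, Cdkn1b and Cdkn2c fall on both sides.

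As a summary of levels that needs no scaling between libraries, the summed level of the 5 inhibitor genes was divided by that of the 3 D cyclin genes in the same library. The ratio was 2.28, 1.94 and 2.30 in A1005, A1129 and A1471 under DMSO, and 31.5, 79.7 and 75.3 in the combination. All 3 combination values lay above every other library, whose highest was 4.84 in A1471 under PD173074. Most of this came from the cyclins, since the summed inhibitor level itself went from 484 ± 92.6 to 718 ± 200 CPM per kb (SD, n = 3). Cdkn2a alone stood at 374 CPM per kb under DMSO and 572 in the combination, and its count cannot separate p16Ink4a from p19Arf. Cdkn2d, which is not among the 5, was at 23.5 CPM per kb under DMSO and 7.10 in the combination. With the longest coding transcript as length, the ratio was between 1.79 and 2.08 under DMSO and between 14.0 and 34.6 in the combination.

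The single inhibitors were compared with DMSO to ask whether either alone altered these genes. With Crizotinib, 0 of the 9 tested members passed by edgeR, with or without the block, as did 0.0% of all genes in both fits. DESeq2 and limma-voom also called 0 members (1 and 0 of all genes), and 0 members had an unadjusted p under 0.05 in the unpaired fit (1 with the block, Ccnd3). Ccnd1 under Crizotinib had 810, 1273 and 1155 CPM in A1005, A1129 and A1471, which was 114%, 105% and 109% of DMSO (log2 fold change 0.12, 95% interval -0.55 to 0.78). Ccnd1 was slightly above its DMSO level in each line with the Met inhibitor alone, and the interval spans from a moderate decrease to a moderate increase.

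With PD173074, 0 of the 9 members passed in the unpaired fit, in which 0.0% of all genes passed, and 0 passed with the replicate block, in which 2.14% of all genes did. DESeq2 and limma-voom called 0 members as well (24 and 0 of all genes), while 1 member (Ccnd1) had an unadjusted p under 0.05 unpaired and 2 (Ccnd1 and Cdkn2b) had one with the block. Ccnd1 had 440, 658 and 517 CPM in A1005, A1129 and A1471, all below the 3 DMSO values, and stood at 62.0%, 54.0% and 48.7% of DMSO. Its log2 fold change was -0.89 (95% interval -1.56 to -0.22), with an adjusted p of 1 unpaired and 0.129 with the block. Cdkn1a was at 70.7%, 68.2% and 60.7% of DMSO under PD173074, in the same direction in all 3 lines, A1129 included (log2 fold change -0.59, 95% interval -1.43 to 0.25, adjusted p = 1). Cdkn2b was at 76.7%, 70.1% and 86.0% of DMSO (log2 fold change -0.33, 95% interval -1.25 to 0.58, adjusted p = 1), which is the opposite direction to the combination.

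The combination was next compared with each inhibitor and with the sum of both single changes on the log2 scale. Against Crizotinib, 2 of the 9 members passed unpaired and 5 with the replicate block, beside 13.2% and 53.4% of all genes. Against PD173074 the counts were also 2 and 5, beside 4.77% and 39.8% of all genes. In both comparisons the 2 were Ccnd1 and Ccnd3, and the block added Cdk6, Cdkn2a and Cdkn2b. Without the block, DESeq2 called 3 members in each, adding Cdk6 against Crizotinib (adjusted p = 0.04) and Cdkn2b against PD173074 (adjusted p = 0.0193), while limma-voom called 2 in each. Over all genes, DESeq2 called 2856 against Crizotinib and 1455 against PD173074, and limma-voom called 1858 and 656. Ccnd1 was lower than with Crizotinib by a log2 fold change of -5.40 (adjusted p = 5.56e-05) and lower than with PD173074 by -4.40 (adjusted p = 1.33e-04). Ccnd3 differed by -0.74 (adjusted p = 0.0229) and -0.87 (adjusted p = 0.0228), and in the unpaired fit neither of these calls was kept without A1129 (adjusted p = 0.124 and 0.276) or without A1471 (adjusted p = 0.315 and 0.291). These comparisons share their combination libraries with each other and with the comparison against DMSO.

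For the departure from additivity, 1 of the 9 members passed unpaired, beside 0.918% of all genes, and 5 passed with the replicate block, beside 16.2%. Ccnd1 departed by -4.52 on the log2 scale (95% interval -5.50 to -3.53, adjusted p = 0.00219), that is, the combination was far lower than the single changes of 0.12 and -0.89 add up to. With 2 lines in the unpaired fit the departure was -4.87 without A1005, -4.16 without A1129 and -4.54 without A1471, and adjusted p was 0.0557, 0.207 and 0.251. With the block, Ccnd3 departed by -0.63 (adjusted p = 0.019), Cdk6 by -0.83 (adjusted p = 0.0294), Cdkn2a by 0.56 (adjusted p = 0.0303) and Cdkn2b by 1.14 (adjusted p = 0.00392). Unpaired, the adjusted p of these 4 genes was between 0.464 and 0.937. Of these 4, Cdkn2b alone passed with the block without each line in turn.

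**Figure D4:**
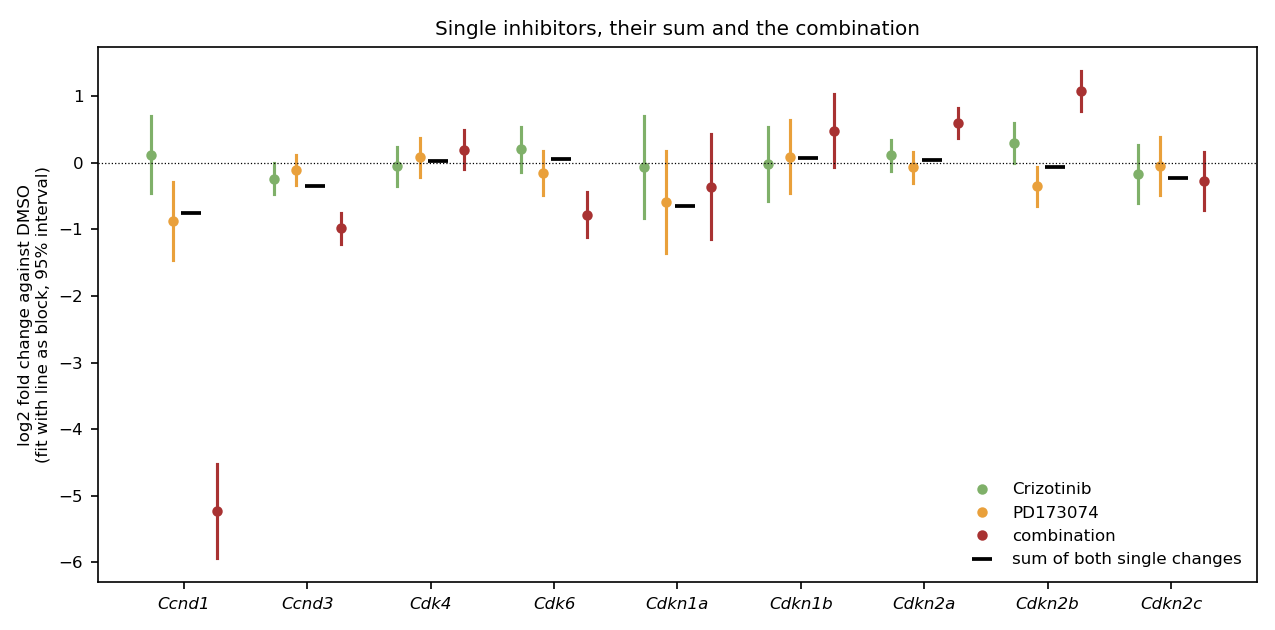
Log2 fold change against DMSO of the 9 tested genes with Crizotinib, PD173074 and the combination (points, with 95% intervals as bars, from the fit with the line as a block), and the sum of both single changes (black dash). For Ccnd1 the combination lies at -5.23 and the interval ends well below the sum, for Cdkn2b it lies at 1.07 and above the sum, and for Cdk4, Cdkn1a, Cdkn1b and Cdkn2c the interval of the combination spans the sum.

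Other genes of the G1 to S transition were mostly lower in the combination. Of 23 tested genes of this list, 10 fell and 0 rose in the unpaired fit (16 fell and 2 rose with the replicate block), beside 8.28% of all genes lower unpaired and 26.2% lower and 28.6% higher with the block, and the median log2 fold change was -0.87 beside 0.02 over all genes tested. Cks1b, a CDK-binding adaptor of the ubiquitin ligase that removes p27, fell by 1.85 on the log2 scale (adjusted p = 4.43e-04), and Skp2, the substrate receptor of that ligase, fell by 1.73 (adjusted p = 0.0043). Cdk2, the kinase of the cyclin E complexes, fell by 1.09 (adjusted p = 0.00115), and its cyclins Ccne1 and Ccne2 fell by 1.52 (adjusted p = 0.0457) and 2.34 (adjusted p = 0.00315). Rbl1, which encodes the pocket protein p107, fell by 1.58 (adjusted p = 0.00289).

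Not all inhibitor genes followed Cdkn2a and Cdkn2b. Cdkn2d, the remaining INK4 gene (p19Ink4d), had 39.2, 38.1 and 33.6 CPM in A1005, A1129 and A1471 under DMSO and 8.62, 16.2 and 8.68 CPM in the combination. It was lower in all 3 lines, and the log2 fold change was -1.73 (adjusted p = 0.00401). Cdkn1c, the remaining Cip/Kip gene (p57), had 0 to 9 counts and was not tested. Rb1, which encodes the substrate of the D cyclin kinases, had 17.2, 23.0 and 20.5 CPM under DMSO and 39.2, 157 and 27.7 CPM in the combination. It was higher in all 3 lines, by far the most in A1129, where it reached 684% of DMSO, and its log2 fold change was 1.89 (adjusted p = 0.0565, 0.00517 with the replicate block). A1129 thus had the largest increases in Cdkn1a, Cdkn1b and Rb1 of the 3 lines.

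Cell cycle phase was not measured in these libraries. As a transcript readout of cycling, 23 of 24 proliferation genes fell in the combination and 0 rose (24 fell with the replicate block), beside 8.28% and 26.2% of all genes lower in these fits, and their median log2 change was -2.10. The survivin gene Birc5 fell by 2.74 (adjusted p = 5.84e-06), the mitotic kinase gene Cdk1 fell by 2.30 (adjusted p = 4.3e-05) and Aurkb, another such gene, fell by 2.78 (adjusted p = 7.79e-05). By line, the list had a median of -2.36 (A1005), -1.88 (A1129) and -2.25 (A1471). The median fall was thus smallest in A1129, which did not hold gene by gene. Of the genes named above, Cdk1 fell less in A1129 (-2.12) than in A1005 (-2.32). Aurkb (-2.81 in A1129, -2.69 in A1005) and Birc5 (-2.67 and -2.66) did not. The list of other G1 to S genes had medians of -0.77 (A1005), -0.90 (A1129) and -1.03 (A1471). The relation of the proliferation genes to Cdkn1a was not tested. The part of a changed mix of cycling and resting cells in the values of the 10 genes was not tested.

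Genes known as p53 targets were called about as often as genes in general. Of 20 tested, 1 rose and 2 fell unpaired, where 14.4% of all genes passed, and 7 rose and 4 fell with the replicate block, where 54.8% did. Their median log2 change was 0.30, beside 0.02 over all genes tested. Trp53inp1, a stress-induced p53 partner that FoxO factors also regulate, rose by 2.98 on the log2 scale (adjusted p = 0.0133), while the kinase gene Plk3 and the nuclease gene Aen fell by 2.06 (adjusted p = 0.0141) and 0.98 (adjusted p = 0.0259). Mdm2, the main feedback target of p53, was at 83.0%, 87.0% and 85.6% of DMSO in the 3 lines (log2 fold change -0.23, adjusted p = 0.208, 0.0345 with the block). By line, 11 of the 20 genes were higher than under DMSO in A1005, 13 in A1129 and 12 in A1471, with medians of 0.06, 0.21 and 0.32. Of all 13836 genes tested, 7227, 6916 and 6945 were higher in the same lines, with medians of 0.016, 0 and 0.004. Trp53 had 56, 85 and 115 counts under DMSO and 60, 53 and 65 in the combination in A1005, A1129 and A1471. Scaled to library size, Trp53 was at 76.3%, 59.4% and 61.7% of DMSO (log2 fold change -0.63, adjusted p = 0.425).

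Target genes of the ERK pathway were lower in the same comparison as Ccnd1. Of 14 tested, 11 fell and 0 rose unpaired (13 fell with the replicate block), where 8.28% and 26.2% of all genes were lower, and their median log2 change was -2.73. Of the ETS factor genes, Etv5 fell by 4.99 (adjusted p = 4.3e-05) and Etv4 fell by 4.74 (adjusted p = 3.84e-04), and the ERK phosphatase gene Dusp6 fell by 5.03 (adjusted p = 4.86e-04), changes of like size to that of Ccnd1. The list median was smaller in A1005 (-2.08) than in A1129 (-3.55) and A1471 (-3.27), and Ccnd1 was also least reduced in A1005. The relation of these genes to Ccnd1 was not tested. With PD173074 alone the median was -0.66, and 0 of the 14 passed unpaired (4 fell with the block, where 2.14% of all genes passed, and 4 had an unadjusted p under 0.05 unpaired). By line, 1, 2 and 2 of the 14 were higher with PD173074 than under DMSO in A1005, A1129 and A1471. Of all 13836 genes tested, 7038, 6797 and 6976 were higher in the same lines. Egr1 was higher in each line, at 59.9, 59.8 and 105 CPM beside 25.6, 30.4 and 7.39 under DMSO, and passed in neither fit.

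**Figure D5:**
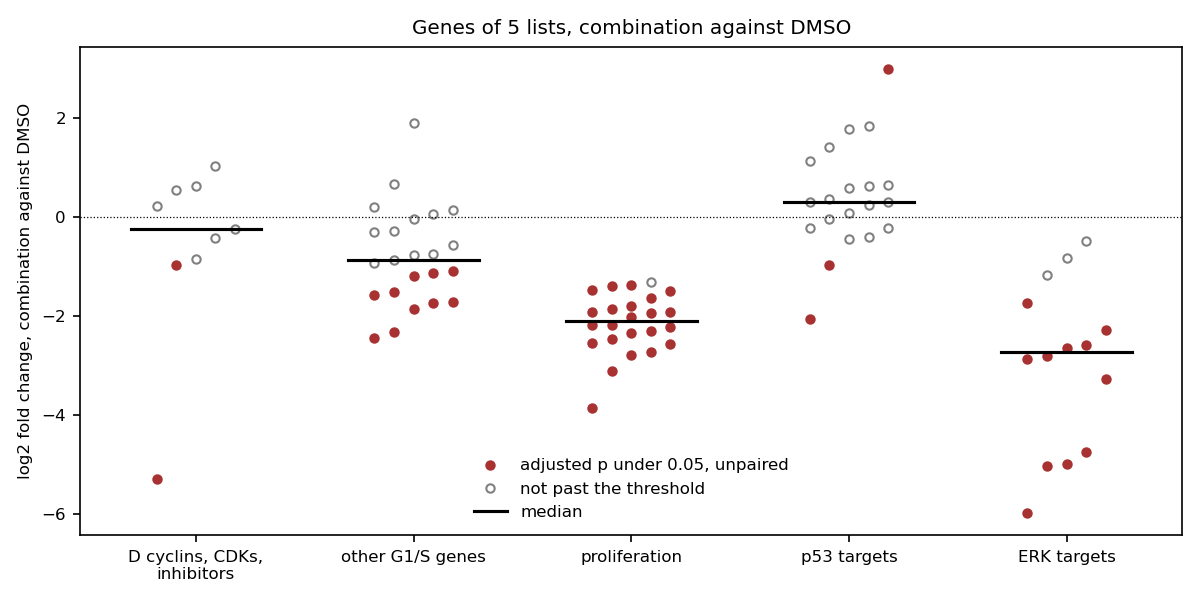
Log2 fold change of each tested gene in the combination against DMSO, unpaired fit, for the 9 tested D cyclin, CDK and inhibitor genes and 4 other lists. Filled points passed the threshold, open points did not, and bars are medians. The proliferation and ERK target genes lie below 0 throughout, with medians of -2.10 and -2.73, while the D cyclin, CDK and inhibitor genes spread from -5.29 to 1.03 around a median of -0.25.

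Among the 9224 genes that averaged 3 or more in log2 CPM, the pattern most like that of Ccnd1 over the 12 libraries, after centring each line, was that of Etv4 (Pearson r = 0.998), followed by Dusp6 (r = 0.997) and Gstcd (r = 0.997). Those most like Ccnd3 were Zdhhc3 (r = 0.990), Me2 (r = 0.989) and Srsf4 (r = 0.985). Named after its value was seen, Cdkn2a was the second most like gene to Cdkn2b (r = 0.954). These values describe 12 libraries that share 4 treatments and 3 lines, and the combination libraries carry much of each r.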

How the data were processed

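Total RNA from 12 tumoursphere libraries (4 treatments in 3 lines, grouped by the labels) was sequenced on a NextSeq500. Per the labels, the submitters' processing notes name bcl2fastq, STAR, HTSeq and the build mm10. Versions, strand setting and annotation release are not given in the sources used here, so reads of genes overlapping on opposite strands may not be separable. The authors deposited raw counts, whole reads per Ensembl gene, without normalization.

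In edgeR 4.0.16 (R 4.3.3), filterByExpr kept genes with a minimum count of 10 and a minimum total of 15, TMM scaled the libraries, and quasi-likelihood tests were run from one unpaired fit of treatment, as the study's methods are unpaired, with Benjamini-Hochberg adjustment over 13836 genes and a threshold of 0.05. Fold changes are those of this fit. CPM used TMM library sizes and, per kb, GENCODE M21 union exon lengths, and coordinates are from that annotation. Per-line ratios carry exact binomial intervals (SciPy), which cover counting error only. Pairing comes from the line in the labels: deviations from treatment means correlated at 0.766 to 0.962 within lines and at -0.663 to -0.047 between them. Subtracting the mean of the lines in each treatment itself pushes the values between lines below 0, so their sign carries no information on pairing. Nothing says that libraries of 1 line came from separate cultures, so p-values of the unpaired fit measure the spread between lines. The block takes out differences in level between lines. Its p-values measure how much the treatment changes vary from line to line.

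Alternatives were the line as replicate block, DESeq2 1.42.0, limma-voom (limma 3.58.1), other scalings, no filter on low counts, fits of the compared groups alone, a cut at 1.5 on the absolute log2 change, and leaving out each line. The 10 genes, the lists and the motifs were chosen with earlier results of these data known. All 10 genes were named. Of each list, up to 3 called genes per direction with the smallest p in the combination against DMSO were named, and Cdkn1c, Cdkn2d, Cdk2, Ccne1, Ccne2, Rb1, Skp2, Trp53 and Mdm2 whatever their values.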

Additional observations from a re-analysis of the deposited data

Results flagged for a closer look

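Several genes of the group moved in opposite directions in different lines under the same treatment, with counting intervals of the 2 extreme lines on either side of no change. The differences between lines were not tested, since each line had 1 library per treatment. In the combination the log2 ratio of the highest minus the lowest line was 1.86 for Cdkn1a, 1.38 for Cdkn1b, 1.15 for Cdkn2c and 0.76 for Cdk4. A1129 was the highest line for Cdkn1a, Cdkn1b and Cdkn2c and the lowest for Cdk4. The gaps were smaller with single inhibitors, at 0.32 for Cdkn1b with Crizotinib, and at 0.41 for Cdkn2a and 0.39 for Cdkn2c with PD173074.

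The effect of adding PD173074 differed with and without Crizotinib for 5 genes by the interaction term of edgeR. For Ccnd1 the departure from additivity was -4.52 in the unpaired fit. With the replicate block it was -0.63 for Ccnd3, -0.83 for Cdk6, 0.56 for Cdkn2a and 1.14 for Cdkn2b. Over the 12 alternatives to the unpaired fit, adjusted p reached 1 for each of the last 4 genes, and Cdkn2b passed in 4 of the 12.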

How the results depend on the processing

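With the replicate block (paired by line), the number of members past the threshold was 5 instead of 2 in the combination against DMSO, Crizotinib and PD173074, and 5 instead of 1 for the departure. Of all genes tested, 54.8%, 53.4%, 39.8% and 16.2% passed with the block in these comparisons, in the same order. Against DMSO, the block gave 18 instead of 10 for the G1/S list and 11 instead of 3 for the p53 list. With only the groups compared, or with a cut at 1.5 on the absolute log2 change, the number of members was 1 in each of the 3 comparisons of the combination. Without the filter on low counts it was 1 against Crizotinib and against PD173074. The p53 count was 5 by DESeq2, which called 2948 of all genes, and 1 with only the groups compared. Over the fits that left out 1 line, blocked or not, members called ranged from 1 to 7 against DMSO, 1 to 7 against Crizotinib, 1 to 5 against PD173074 and 0 to 3 for the departure. The G1/S list ranged from 2 to 16, proliferation from 14 to 24, p53 targets from 0 to 11 and ERK targets from 2 to 13. These fits kept 2 libraries per group. The share of all genes that passed in them is not given here, so these ranges have no background beside them.

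In the combination against DMSO, adjusted p over 13 alternatives was 7.71e-57 to 0.029 for Ccnd1, 4.13e-05 to 0.155 for Ccnd3, 4.46e-04 to 0.609 for Cdk6, 8.68e-04 to 0.616 for Cdkn2a and 1.18e-04 to 0.328 for Cdkn2b, with the direction kept in each. Cdkn1a against PD173074 was 0.17, ranged from -0.49 to 0.63 with 1 line left out, and turned to -0.47 (adjusted p = 0.0448) without A1129 and with the block. Of 693 single-gene alternatives, 30 had the other sign. Other scalings moved the median of all genes by at most 0.05 on the log2 scale. Ccnd2 and Cdkn1c were limited by depth. The causes were not tested.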
